A study of Mus musculus with 6 samples.

Results

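The genes described here encode heat shock proteins and chaperones, the proteins that help other proteins fold, assemble and cross membranes. The rule that picks them uses the gene symbol and no measured value, but the set was chosen with earlier results of these data known. The set holds the HSP70 genes (Hspa), the small heat shock protein genes (Hspb), the HSP90 genes, Hsph1, the mitochondrial chaperonin genes Hspd1 and Hspe1, the J-domain protein genes (Dnaja, Dnajb, Dnajc) and the genes of the cytosolic chaperonin TRiC (Cct and Tcp1). Of 13840 genes named on the array, 61 met this rule, through 64 probes. Where a gene had several probes, the brightest by mean log2 intensity stands for it. Only probes assigned to a single gene count as named, so a gene read only by probes shared with other genes is left out. Hspa1a, Hspa1b, Hspa8, Hsp90aa1, Hsp90ab1 and Hspb1 have no named probe in this sense and were not analysed.

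RNA came from presomitic mesoderm, the unsegmented tail tissue from which somites form, of mouse embryos at embryonic day 10.5. One group was Nrarp knockout, embryos in which homologous recombination had put LacZ in place of the coding region of Nrarp, a gene that Notch signalling induces and that feeds back on it. The other was wild type, littermates from the same crosses of heterozygous parents. The replacement is not limited to a tissue by a Cre driver, and 12 pieces of presomitic tissue were collected for each genotype. Both genotypes were read on 3 one-colour arrays, with replicate numbers 1 to 3. Nothing says how the tissue was shared out among them. The p-values therefore reflect the spread of these samples alone, possibly a technical one, and precision is limited by having so few arrays. In bulk tissue, fewer cells of a type and less RNA per cell cannot be told apart. All values are the authors' scaled intensities, on a linear scale on which each array's median lies just under 1. The brightness of a probe also depends on its own sequence, so no order of genes by level is drawn.

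The tissue and the labels were checked first. All 10 presomitic markers examined had a named probe, 7 of them lay above the 75th percentile on every array, among them Tbx6, Dll3 and Mesp2, and 0 lay below the median on every array. The Nrarp probe averaged 398 ± 70.2 (SD, n = 3) over wild-type arrays, against 26.7 ± 14.4 (SD, n = 3) over knockout arrays (log2 difference -4.03; limma adjusted p = 0.428, and 4.2e-04 with the replicate number as a block). Both arrays numbered 1 stood apart from the other 4: their 75th percentile divided by their 10th was 42.7 (wild type) and 56.9 (knockout) there, 15.82 and 15.98 on wild-type replicates 2 and 3, and 12.4 and 14.8 on knockout replicates 2 and 3. The genotype comparison is therefore given with and without replicate 1.

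HSP70 proteins bind short exposed stretches of unfolded chains in a cycle driven by ATP. J-domain proteins bring them their clients and start ATP hydrolysis, and HSP110 proteins help them exchange the nucleotide. Chaperonins such as TRiC and the mitochondrial HSP60 ring enclose a whole protein in a chamber, and small heat shock proteins hold unfolded proteins without using ATP. Many of these genes are induced by heat shock factor through heat shock elements, and those of the endoplasmic reticulum (ER) by the unfolded protein response through ER stress elements.

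Promoter stretches are shown for 4 members that return below: the mitochondrial cochaperonin gene, a J-domain gene with readings that differ between replicate numbers, and the ER chaperone genes of the HSP70 and HSP90 families. RefSeq promoter windows (GRCm38.p6) were matched by symbol for 53 of the 61 genes, in 72 windows, and the 250 bases before each start were searched. Capitals mark heat shock element units, spelled GAANNTTC or TTCNNGAA, in the first pair and the ER stress element, CCAAT and CCACG separated by 9 bases on either strand, in the second pair. Both heat shock units read the same on the opposite strand and can overlap.
Hspe1 (chr1:55088028-55088107, plus strand): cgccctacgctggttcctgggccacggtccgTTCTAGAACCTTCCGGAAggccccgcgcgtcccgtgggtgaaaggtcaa
Dnajb6 (chr5:29735818-29735897, plus strand): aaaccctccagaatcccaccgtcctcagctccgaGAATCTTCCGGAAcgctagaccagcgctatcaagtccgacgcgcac
Hspa5 (chr2:34771990-34772069, plus strand): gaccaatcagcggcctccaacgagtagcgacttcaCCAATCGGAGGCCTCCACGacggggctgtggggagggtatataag
Hsp90b1 (chr10:86705495-86705574, minus strand): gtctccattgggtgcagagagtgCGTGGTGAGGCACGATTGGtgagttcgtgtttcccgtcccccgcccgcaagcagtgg

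At least 1 heat shock unit stood in 15 of the 72 member windows (20.8%), belonging to 13 genes, against 12.8% of all 32851 windows. Runs of 3 overlapping units occurred in 2 member windows (3 units or more: 0.140% of all windows), those of Hspe1 and Hspd1. These windows share 285 of their 300 bases on opposite strands, so the run of 18 bases from position -89 to -72 before the Hspe1 start also lies before one of the Hspd1 starts. The ER stress element was found in 3 member windows (4.17%), those of Hspa5, Hsp90b1 and Dnajc3, against 37 of all windows (0.113%). A match describes letters only, and shows neither binding nor control.

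Most chaperone genes read above the array median in this tissue. Readings lay above the array median on all 6 arrays for 38 of the 61 genes, against 6662 of all 13840 named genes. They lay above the 75th percentile on all 6 for 27 of the 61, against 4036 of all named genes. For 15 genes the mean over the arrays lay below the array medians, and these are called dim below. All 8 TRiC ring subunits lay above the 75th percentile on every array, with single readings from 34.2 to 1861. So did both mitochondrial chaperonin genes, Hsph1, Hsp90b1, the HSP70 genes Hspa5, Hspa14 and Hspa9, and 12 of the 32 J-domain genes. None of the 5 small heat shock protein genes did, and their readings ran from 0.320 to 14.5. The 2 remaining genes under the Cct symbols, Cct6b and Cct8l1, lay below the median on every array, and 10 of the 32 J-domain genes were dim.

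No chaperone gene passed the test between genotypes. With genotype alone in the limma model, 0 of 61 genes reached an adjusted p of 0.05 (0% of all 33012 probes) and 0 an unadjusted p of 0.05 (0.657% of all probes). That fit did not pass the targeted gene Nrarp either (limma adjusted p = 0.428). Its count of 0 therefore does not show that the 61 genes were unchanged. The median log2 difference, knockout minus wild type, was 0.00037 over the 61 genes, with 31 positive and 30 negative, and -0.0025 over all named genes. Of the 46 genes that were not dim, 42 differed by less than 0.5 in size. With the replicate number as a block 0 genes passed (0.00606% of all probes) and 2 had an unadjusted p under 0.05, which is 3.28% of the genes against 3.75% of all probes. In that fit the 95% interval of the difference lay between -1 and 1, a change of less than 2-fold either way, for 40 of the 61 genes and for 39 of the 46 that were not dim. For the rest this fit could not show whether a 2-fold change was present. The count rests on the block. Without it the standard error was far larger for many genes, such as Hsph1 (0.672 against 0.142) and Cct7 (0.695 against 0.103). For others it was much the same, as for Hspb3 (0.554 against 0.557). The count of such intervals was not made without the block or over all probes.

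**Figure D1:**
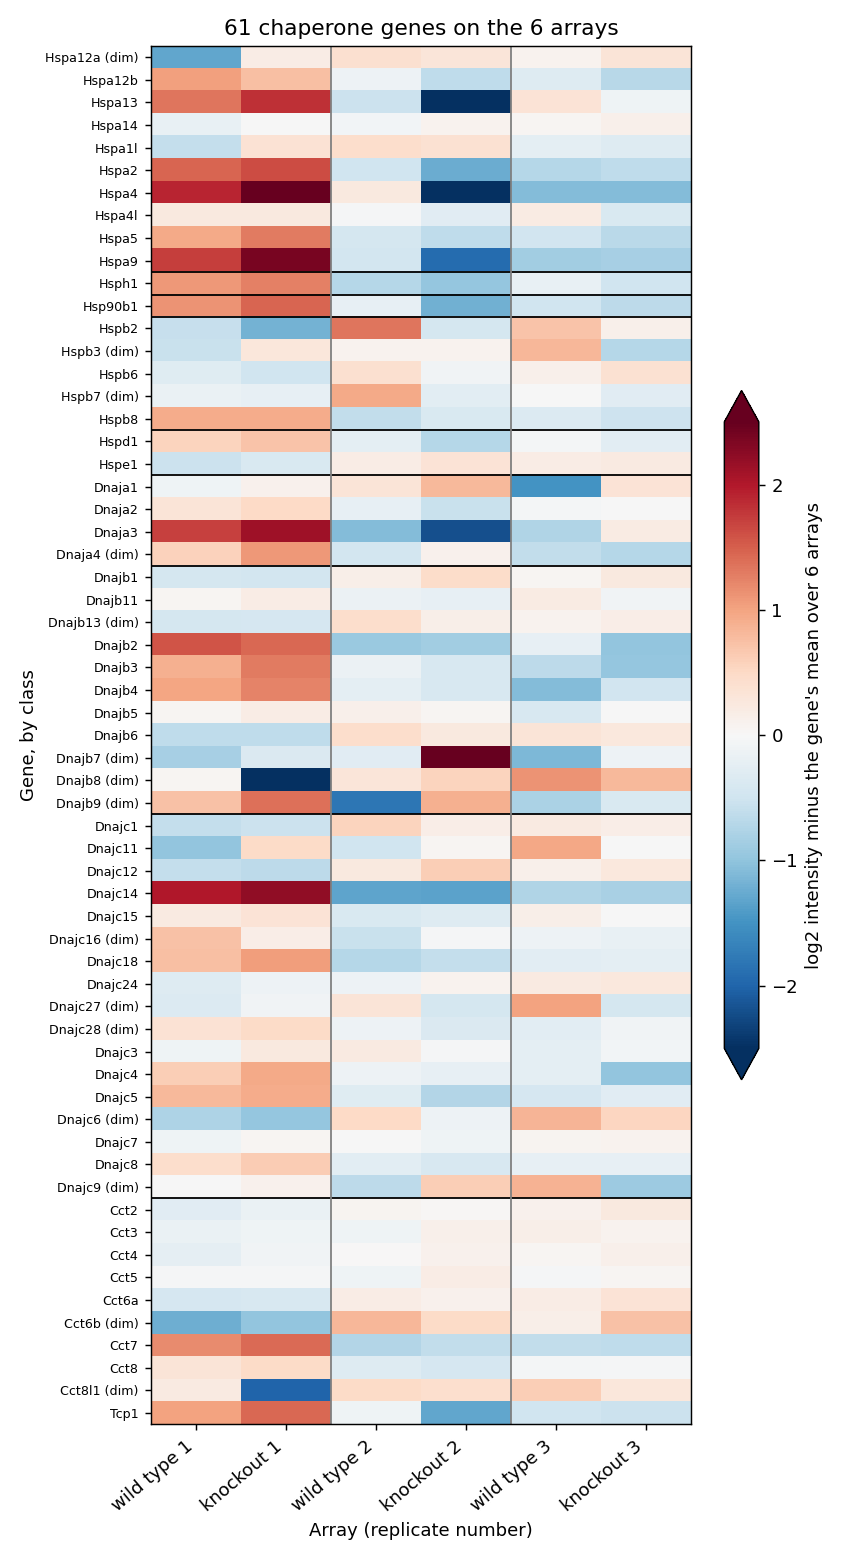
Log2 intensity of each of the 61 genes (rows, by class, separated by black lines) on the 6 arrays (columns, ordered by replicate number), after subtraction of the gene's own mean, with red above and blue below it; the colour scale ends at 2.5 either way. The strongest colours fall in the 2 columns of replicate 1 and on knockout replicate 2. The 2 columns of replicate 1 resemble each other, while the columns of replicates 2 and 3 do not pair by number.

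The 2 genes with an unadjusted blocked p under 0.05 were Hspb2 and Dnajb7. Hspb2, a small heat shock protein gene best known from heart and skeletal muscle, read 1.07, 4.07 and 2.64 on the wild-type arrays and 0.710, 1.18 and 1.75 on the knockout arrays. It was lower in the knockout within each replicate number, while the groups overlapped. The log2 difference was -0.99 (95% interval -1.88 to -0.10 with the block; limma adjusted p = 1.00). Dnajb7, a J-domain gene known from testis, read 0.287, 0.421 and 0.237 on the wild-type arrays and 0.396, 3.39 and 0.469 on the knockout arrays. Only knockout replicate 2 read above the array median, and the log2 difference was 1.49 (95% interval 0.17 to 2.80 with the block). Within replicate numbers it was 0.47, 3.01 and 0.99. The groups did not overlap for 1 gene, or 1.64% against 3.78% of all probes. That gene, Hspb7, another small heat shock protein gene of muscle, was dim, at 0.346, 0.748 and 0.385 against 0.335, 0.322 and 0.320 (exact permutation p = 0.1, two-sided, the smallest that 3 against 3 arrays can give).

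The heat-inducible genes measured here did not pass between genotypes. Hsph1, the HSP110 nucleotide exchange factor of HSP70, read 68.1, 19.7 and 28.1 on the wild-type arrays and 77.1, 16.4 and 22.8 on the knockout arrays, a log2 difference of -0.13 (95% interval -0.45 to 0.20 with the block). Dnajb1, the classical inducible HSP40, read 40.05, 60.2 and 56.2 against 39.8, 74.6 and 64.1, a difference of 0.16 (-0.11 to 0.43). In both genes the groups overlapped, and replicate 1 stood apart from replicates 2 and 3 in both genotypes, high for Hsph1 and low for Dnajb1. Dnaja1, an HSP40 of the cytosol, read 1.12, 1.496 and 0.427 against 1.29, 2.10 and 1.52, and wild-type replicate 3 alone lay well below the others. Its difference of 0.84 was the largest positive one among the genes that were not dim (-0.19 to 1.88). These readings lay close to the array medians, and the difference was 0.41 when 1 was added to every intensity.

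The ring subunits of TRiC, which folds actin and tubulin, differed little between genotypes. Of the 8, 7 had positive and 1 negative log2 differences between genotypes, from -0.26 (Tcp1) to 0.13 (Cct5), with a median of 0.07. Cct3 gave 1493, 1562 and 1861 on the wild-type arrays and 1556, 1820 and 1785 on the knockout arrays. Cct5 gave 783, 742 and 782 against 783, 914 and 827. For these genes the blocked intervals were narrow, at -0.14 to 0.29 for Cct3 and -0.09 to 0.35 for Cct5. Tcp1 had the widest of the 8, at -0.84 to 0.31. Cct6b, a testis paralogue of Cct6a, had the largest positive difference under these symbols (0.15) and Cct8l1 the largest negative one (-0.87), both at dim readings from 0.0984 to 0.604.

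The sign of most genotype differences varied with the replicate number, as on the array as a whole. The knockout array read higher for 47 of the 61 genes within replicate 1, for 21 within replicate 2 and for 29 within replicate 3. The median differences were 0.15, -0.09 and -0.01, against 0.11, -0.04 and -0.02 over all named genes. In all 3 pairs 8 genes were positive (13.1%, against 13.9% of all named genes) and 7 negative (11.5%, against 9.39%). The 10 HSP70 genes had medians of 0.42, -0.37 and -0.04, so replicate 1 and replicate 2 lay on opposite sides of 0. Arrays of replicates 2 and 3 are matched here by number alone.

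**Figure D2:**
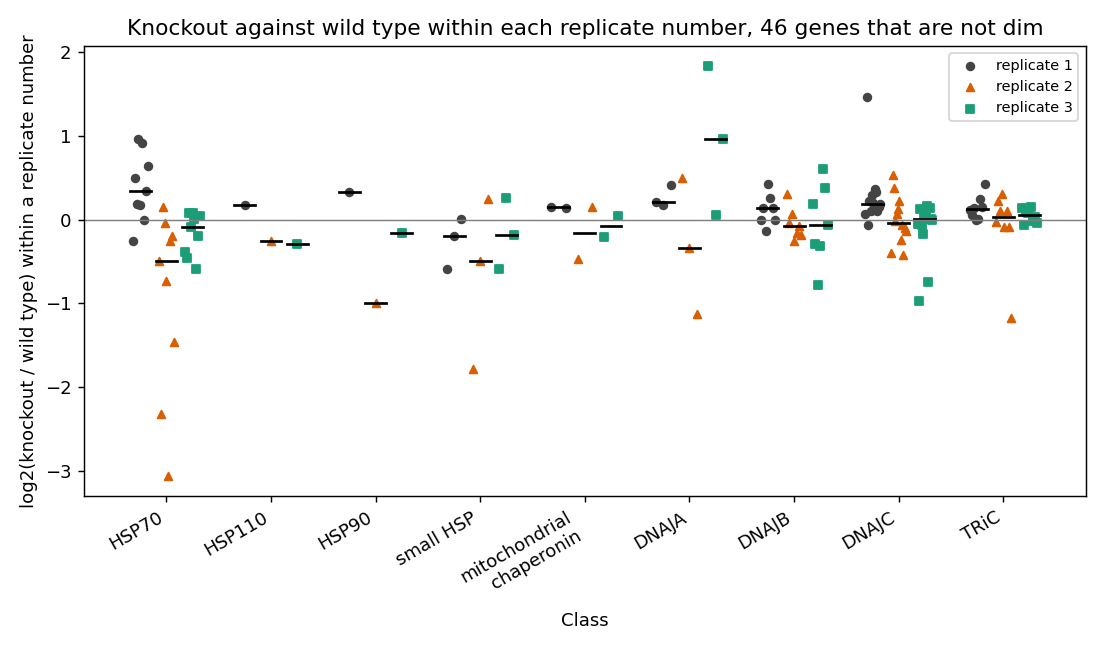
Log2 ratio of knockout to wild type within each replicate number (circles, triangles and squares) for the 46 genes that are not dim, by class; short black lines are medians. Most circles lie above 0, and the lowest values, down to -3.06 for Hspa4, are triangles of replicate 2.

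Without replicate 1, a set of genes read lower in the knockout without passing. In the blocked limma fit on replicates 2 and 3, 0 genes passed over all probes (smallest adjusted p 0.782; 0.00606% of probes passed). Of the 61 genes, 7 were lower with an unadjusted p under 0.05, which is 11.5% against 3.41% of all probes. All 7 were among the 46 that were not dim, against 404 of the 8357 such named genes on the array. The 7 were Hspa4, Hspa9, Hspa13, Hsp90b1, Hspb2, Hspd1 and Tcp1, with log2 differences from -1.53 to -0.34. The 2 others under 0.05 in either direction (9 in all, 5.84% of all probes) were the dim genes Dnajb7 and Dnajb9, both higher. For 6 of the 7 lower genes knockout replicate 2 gave the lowest of all 6 readings, and 6 read higher in the knockout within replicate 1. Knockout replicate 2 was also lowest for 37.1% of all named genes that were not dim. The block in this fit matches the arrays by number alone. Within replicate 3 alone, 6 lay within 0.5 of 0. Knockout replicate 2 was also the array with the narrowest range (75th to 10th percentile 12.4), and the part of this in the result was not tested.

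Hspa9, the HSP70 of the mitochondrial matrix (mortalin), read 101, 22.3 and 16.7 on the wild-type arrays and 158, 8.09 and 17.2 on the knockout arrays. Both replicate 1 arrays were far above the others, knockout replicate 2 was lowest, and the pair of replicate 3 was nearly equal. The log2 differences within numbers were 0.64, -1.46 and 0.05. Hspa4, an HSP110-like relative of HSP70, read 15.2, 4.801 and 1.90 against 28.5, 0.577 and 1.90, with differences of 0.91, -3.06 and 0.0015. Hspa13, a microsomal member of the family, read 16.4, 4.48 and 8.29 against 23.1, 0.896 and 6.05, the largest negative difference of the class between genotypes (-0.76).

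Readings of these genes differed more between replicate numbers than between genotypes, with a median size of 0.84 for the shift of replicate 1 against 0.15 for the genotype difference on the log2 scale. The same held for all named genes, at 0.87 against 0.19. The replicate term of the limma fit passed an adjusted p of 0.05 in 31 of 61 genes (50.8%), against 27.8% of all probes and 36.8% of named genes. Among genes that were not dim it passed in 30 of 46 (65.2%), against 54.8% of such genes on the whole array and 48.5% of such probes. Readings of both replicate 1 arrays lay above all the other 4 in 28 genes and below all 4 in 16, against 38.1% and 26.6% of named genes. The shift between replicate 1 and the mean of replicates 2 and 3 exceeded 1 on the log2 scale in 26 genes (42.6%, against 44.0% of all named genes), whereas the genotype difference did so in 2 (3.28%, against 3.16%). These calls needed a variance prior that follows intensity: without it 2 genes passed (4.23% of all probes). Without knockout replicate 1 they fell to 17, of which 13 were higher on replicate 1.

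The direction of these shifts depended on how the arrays were scaled. With the authors' scaling 24 of the 31 genes were higher and 7 lower on replicate 1 (17.5% and 10.2% of all probes), and the median shift of all named genes was 0.07 (0.64 for those not dim). With arrays centred on their 75th percentiles, which moves the median of all named genes to -0.71, 38 genes passed, 12 higher and 26 lower (10.7% and 42.8% of all probes). With quantile normalization 27 passed, 16 higher and 11 lower (11.3% and 12.3% of all probes), and the median of all named genes was 0.05. Under all 3 scalings 18 genes passed with 1 sign, 12 of them higher and 6 lower on replicate 1. That is 29.5% of the 61, against 21.9% of all named genes (15.5% higher and 6.36% lower), and 39.1% of the 46 that were not dim, against 35.1% of such genes on the array. The higher ones were Hspa2, Hspa4, Hspa5, Hspa9, Hspa13, Hsph1, Hsp90b1, Dnaja3, Dnajb2, Dnajc14, Cct7 and Tcp1. The lower ones were Hspe1, Dnajb1, Dnajb6, Dnajc1, Dnajc12 and Cct6a.

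**Figure D3:**
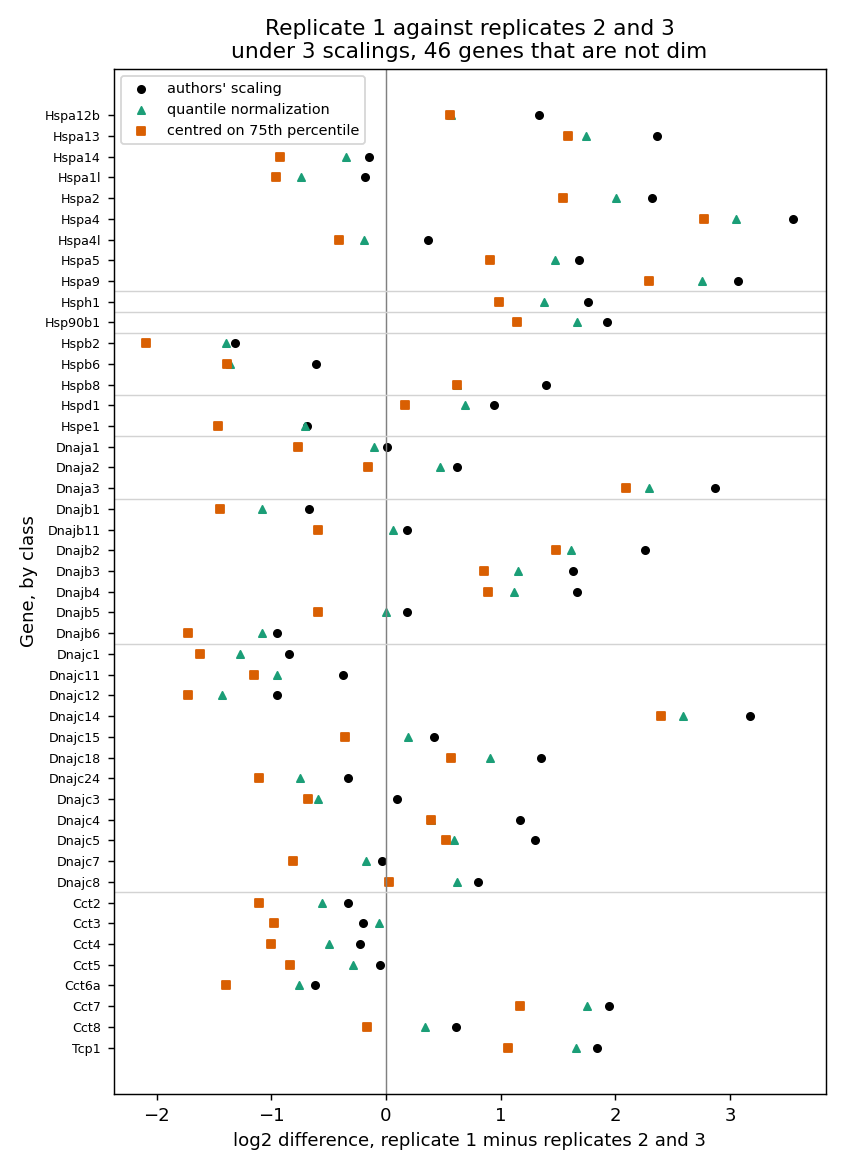
Log2 difference between replicate 1 and the mean of replicates 2 and 3 for the 46 genes that are not dim (rows, by class), with the authors' scaling (black circles), quantile normalization (green triangles) and centring on the 75th percentile (orange squares). Hspa4, Hspa9, Dnaja3 and Dnajc14 lie above 2 under all 3 scalings, and Hspe1, Dnajb6, Dnajc1 and Dnajc12 lie below 0 under all 3.

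Among the HSP70 genes, 6 of 10 passed the replicate term, all with higher readings on replicate 1 by the authors' scaling. On the whole array 36.8% of named genes and 54.8% of those not dim passed, most of them higher, and the counts of each class are to be read against these shares. Hspa5 (BiP), the HSP70 of the ER, read 742, 281 and 275 on the wild-type arrays and 939, 246 and 239 on the knockout arrays. The 2 arrays of replicate 1 stood clear of the other 4, and the genotypes overlapped. Its shift was 1.69 (limma adjusted p of the replicate term 1.2e-04) and its genotype difference -0.02. Hspa14, a ribosome-associated member, varied little, from 90.8 to 114 over all 6 arrays (shift -0.15, genotype difference 0.14). Hspa12a, a divergent member, had the largest positive genotype difference of the class (0.54) at dim readings from 0.228 to 0.742.

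Of the 3 genes with an ER stress element before their start, Hspa5 (shift 1.69) and Hsp90b1 read higher on replicate 1, and Dnajc3 was nearly level. Hsp90b1, the HSP90 of the ER lumen, read 109, 43.7 and 35.7 on the wild-type arrays and 137, 21.9 and 31.9 on the knockout arrays, with replicate 1 high in both genotypes and a shift of 1.92. Dnajc3, an ER J-domain protein that binds BiP, read 16.5, 20.7 and 15.1 against 21.1, 17.5 and 16.9. Its shift was 0.10 (limma adjusted p of the replicate term 0.543). Dnajb11, Dnajc1, Dnajc14 and the microsomal Hspa13 are ER genes that are not among those with a match, and their shifts differed. Dnajc14 (shift 3.17) and Hspa13 (2.37) read higher on replicate 1. On the whole array 44.4% of named genes that were not dim passed the replicate term with higher readings there. A relation between the element and the shift was not tested. Dnajb11, another BiP cofactor, ranged from 137 to 180 with a shift of 0.18. Dnajc1, a J-domain protein of the ER membrane, was lower on replicate 1 (36.1 and 37.7 against 61.2 to 80.7).

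The mitochondrial chaperonin genes shifted in opposite directions between replicate numbers. Opposite signs were also frequent between probes of a single gene, in 82 of 197 genes with 2 or more probes above the median on every array. Hspe1, which encodes the HSP10 lid of the chamber, read 1088, 1779 and 1783 on the wild-type arrays and 1199, 1979 and 1830 on the knockout arrays. Both replicate 1 arrays lay below the other 4, a shift of -0.69 (limma adjusted p of the replicate term 0.0018). Hspd1, which encodes the HSP60 ring, read 559, 322 and 367 on the wild-type arrays and 620, 233 and 319 on the knockout arrays on its brightest probe. Both replicate 1 arrays lay above the other 4, a shift of 0.94, although this shift did not pass when arrays were centred on their 75th percentiles. Between genotypes the log2 differences were 0.11 for Hspe1 (95% interval -0.09 to 0.31 with the block) and -0.17 for Hspd1 (-0.46 to 0.11). As given above, the Hspe1 window and that of one Hspd1 start are largely the same bases, read in opposite directions, while the window of the other Hspd1 start shares 4 bases with it and holds 0 heat shock units.

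The 3 Hspd1 probes gave shifts of different size for the same gene. The probe with the middle readings gave 215, 86.1 and 88.6 on the wild-type arrays and 274, 37.0 and 81.9 on the knockout arrays, a shift of 1.81. The dimmest gave 73.5, 11.5 and 10.5 against 96.1, 2.94 and 8.44, a shift of 3.51. The dimmer the probe, the larger the shift and the lower knockout replicate 2 lay against the rest. The genotype differences were -0.17, -0.33 and -0.63 from the brightest to the dimmest probe, and none passed. The 2 probes of Dnajc5, which encodes the cysteine string protein of secretory vesicles, gave genotype differences of opposite sign, -0.06 on the brighter and 1.05 on the dimmer.

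In the TRiC ring 4 of 8 subunits passed the replicate term, against 54.8% of all named genes that were not dim, and their shifts did not share a direction. The probes of Cct2, Cct3, Cct4, Cct5 and Cct6a, with negative shifts, averaged 666 to 1757 over replicates 2 and 3. Those of Tcp1, Cct7 and Cct8, with positive shifts, were dimmer, at 56.9 to 323. The part of probe brightness in the direction was not tested. Cct7 read 318, 85.1 and 91.9 on the wild-type arrays and 377, 91.5 and 91.2 on the knockout arrays, with both replicate 1 arrays far above the others (shift 1.95). Tcp1 read 168, 77.3 and 58.8 against 227, 34.2 and 57.2 (shift 1.84). Cct6a read 980, 1490 and 1492 against 985, 1400 and 1657, with both replicate 1 arrays below the others (shift -0.62). Cct2 read 825, 1047 and 1072 against 891, 1027 and 1184 (shift -0.33, adjusted p of the replicate term in limma 0.059). The shift of Cct8 was 0.61, and it turned to -0.17 with arrays centred on their 75th percentiles. Those of Cct3, Cct4 and Cct5 lay between -0.23 and -0.06, and none of these passed under the authors' scaling.

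**Figure D4:**
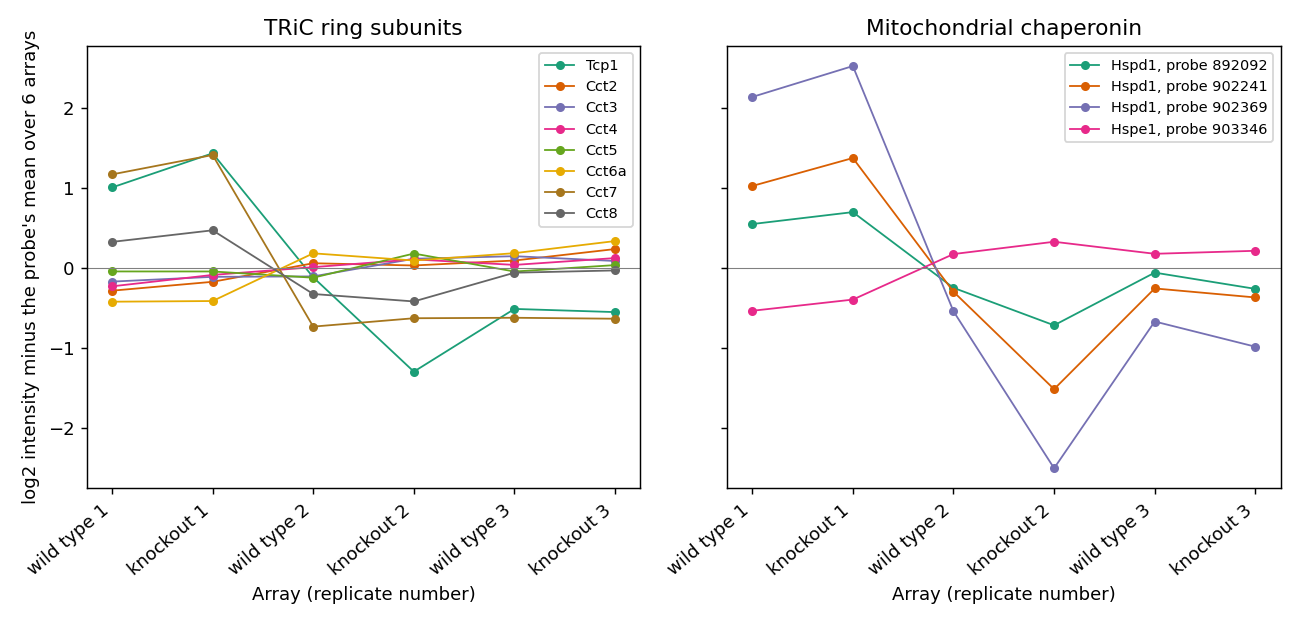
Log2 intensity minus the probe's own mean over the 6 arrays for the 8 TRiC ring subunits (left) and for the 3 Hspd1 probes and the Hspe1 probe (right); lines join the readings of 1 probe. On the left Cct7 and Tcp1 lie highest on both replicate 1 arrays while Cct6a lies lowest there, and on the right the Hspd1 probes fan out while Hspe1 runs the other way.

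Of the 32 J-domain genes, 15 passed the replicate term (46.9%, between the shares of all named genes and of those not dim), 11 with higher and 4 with lower readings on replicate 1 by the authors' scaling. Dnajc14, an ER membrane protein, had one of the largest shifts of all members (3.17), reading 10.6 and 12.3 on replicate 1 against 1.05 to 1.58 on the other arrays. Dnaja3, the J-domain partner of mitochondrial HSP70, read 9.85 and 13.1 against 0.659 to 3.498 (shift 2.86). Dnajb6, which keeps aggregation-prone proteins soluble and whose heat shock units are printed above, went the other way, at 149 on both replicate 1 arrays against 275 to 312 elsewhere (shift -0.95). Dnajb1 was also lower there (shift -0.67). Dnajc7, which links HSP70 with HSP90, ranged from 213 to 242 over the 6 arrays (shift -0.04).

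The 4 Dnaja genes had a median of 0.20, the 11 Dnajb genes of -0.05 and the 17 Dnajc genes of 0.02. None of these medians kept its sign when 1 array was left out: the Dnaja median was -0.22 without knockout replicate 1 and 0.82 without wild-type replicate 1, the Dnajb median 0.21 without wild-type replicate 1, and the Dnajc median -0.18 without wild-type replicate 2 and 0.13 without knockout replicate 2. Dnaja2, a cytosolic HSP40, was the only negative one of the Dnaja genes (-0.04), at 245, 170 and 188 on the wild-type arrays and 276, 134 and 195 on the knockout arrays. The extreme Dnajb genes were dim: Dnajb7, given above, and Dnajb8 (-0.98), which read 0.344, 0.412 and 0.728 against 0.0474, 0.490 and 0.583. Dnajb8 was far lower in the knockout within replicate 1 (-2.86) and differed by 0.25 and -0.32 within replicates 2 and 3. Among the Dnajc genes the extremes were the mitochondrial membrane protein gene Dnajc11 (0.34) and Dnajc27 (-0.64, dim), and the sign of Dnajc11 turned to -0.22 without replicate 1.

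Among the small heat shock protein genes 1 of 5 passed the replicate term. Hspb8, a partner of the cochaperone Bag3 in the removal of misfolded proteins, read 14.4, 4.93 and 5.96 on the wild-type arrays and 14.5, 5.84 and 5.26 on the knockout arrays. The replicate 1 arrays of both genotypes stood above the rest (shift 1.40), and the genotype difference of 0.02 was the only positive one of the class. Hspb6 read 8.29, 13.6 and 11.2 against 7.25, 9.64 and 13.4, with overlapping groups (-0.14), and the class median was -0.23. That median was -0.47 with quantile normalization, -0.59 with array weights, -0.74 on replicates 2 and 3 and -0.57 without wild-type replicate 1.

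Genes of other chaperones, cochaperones and related factors, outside the symbol rule, did not pass between genotypes either. Among the related ones are the heat shock factor genes Hsf2 and Hsf4 and the mitochondrial protease genes Lonp1 and Clpp. Of 57 measured, 0 passed between genotypes and 0 had an unadjusted p under 0.05 in either limma fit. On replicates 2 and 3 with the block, where 9 of the 61 genes above had an unadjusted p under 0.05, 0 of these 57 did, and the difference between the lists was not tested. Their median log2 difference was -0.01, with 23 positive and 34 negative. The 2 largest positive differences were those of the mitochondrial nucleotide exchange factor gene Grpel2 (0.41) and of Pdcl2 (0.34), both dim. The 2 largest negative ones were those of the dim genes Hsf4 (-0.56) and Cryaa (-0.54). Hsf2, a heat shock factor gene, differed by -0.05, and Hsf1 has no named probe here. Of the 57, of which 50 were not dim, 35 passed the replicate term (61.4%, against 36.8% of all named genes and 54.8% of those not dim), 31 higher and 4 lower on replicate 1 by the authors' scaling. Among 17 genes listed for folding in the ER, 14 had negative genotype differences (median -0.09, 0 passing), against 6984 of all 13840 named genes. This list also holds the stress regulator genes Xbp1 and Ddit3, the translocon gene Sec61b and the degradation genes Herpud1 and Edem1. The sign varied with the replicate number: 13 of the 17 were positive within replicate 1, 7 within replicate 2 and 2 within replicate 3. The medians were 0.07, -0.18 and -0.19. Of these 17 listed genes, 12 passed the replicate term, all higher on replicate 1. The shifts were 4.15 for Hyou1, an ER nucleotide exchange factor, 2.77 for the lectin chaperone gene Calr and 2.56 for the collagen chaperone gene Serpinh1.

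Summed readings of markers of neighbouring tissues differed between replicate 1 and the rest for some tissues. The summed reading of 7 neural tube markers was 198 and 207 on the replicate 1 arrays and 73.9 to 111 on the others; Tubb3 was above the 75th percentile on every array, and the defining markers Sox1 and Pax6 were below the median on every array. That of 6 surface ectoderm markers was 292 and 299 against 205 to 215, with 5 of the 6 above the 75th percentile on every array. That of 6 primitive erythroid markers was 4906 and 5795 against 6687 to 7747, all 6 above the 75th percentile on every array. The sum of 6 endothelial markers was 69.6 and 69.9 against 70.5 to 100.4, with Cdh5 below the median on every array. The sums of 6 gut endoderm markers (11.7 and 13.6 against 10.7 to 26.8) and of 8 somite and muscle markers (470 and 622 against 516 to 584, with Myf5 and Myog below the median on every array) overlapped between replicate 1 and the rest. Of these lists the replicate term passed in 2 of 7 neural and 2 of 6 ectoderm markers, all higher on replicate 1. It passed in 3 of 6 erythroid (2 higher, 1 lower) and 4 of 6 endothelial markers (3 higher, 1 lower). The sums of both these lists were nevertheless lower on replicate 1, so a sum does not give the direction of its single markers. Passing markers were also 1 of 6 endoderm (higher), 4 of 8 somite (3 higher, 1 lower) and 6 of the 10 presomitic ones (5 higher, 1 lower). The array-wide shares are again 36.8% of named genes and 54.8% of those not dim. The presomitic sum was 1514 and 1598 on replicate 1 against 1580 to 1792. The part of tissue makeup, of array range and of handling in the differences between replicate numbers was not tested.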

How the data were processed

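The authors deposited 1 table of probe intensities, scaled so that array medians lie just under 1, with 0 missing values and 0 at or below 0. Per the labels' protocols, digoxigenin-labelled cRNA was hybridised to Applied Biosystems one-colour arrays, which the labels call human although the organism is mouse. How the scanner values were scaled, background-corrected or filtered is not given in the sources used here. Gene names came from the annotation table of the array, and only probes assigned to a single gene were given a name. Intensities were converted to log2 without offset or filter. Genotype (3 against 3 arrays) and the replicate term entered models in limma 3.58.1 under R 4.3.3 (eBayes with an intensity trend; two-sided for genotype, a moderated F test for replicate), and p-values were adjusted by Benjamini-Hochberg across the 33012 probes, with calls at 0.05. Single values used an exact permutation test in scipy 1.17.1. Fits were tested on simulated data. Within replicate numbers, deviations from the group means correlated by 0.757, 0.442 and 0.374 across probes, and arrays of 1 number were accordingly taken as pairs. The labels tie no number to a litter or day. The data set number 1 apart from 2 and 3, but do not tell 2 from 3, since across these numbers the correlations were 0.397 and 0.419.

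The genes and lists were chosen with earlier results of these data known. Named genes are textbook members, those with an unadjusted p under 0.05 in either fit or with separate groups, the extremes of each class and the 5 smallest p-values of the replicate term. The other TRiC subunits, the genes lower in replicates 2 and 3, those sharing 1 sign under all scalings and Hspa14, Dnajb11, Dnajc3, Dnajc7, Hspb6 and Hspb8 were named after their values were seen. Protein sequences were not used here.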

Additional observations from a re-analysis of the deposited data

How the results depend on the processing

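The number of the 61 genes past an adjusted p of 0.05 between genotypes stayed at 0 under every alternative run. As given above, the fit without the block did not pass Nrarp either. The number with an unadjusted p under 0.05, which was 0, became 2 with the replicate number as a block, 1 with the block and no intensity trend, 3 with array weights, 6 on replicates 2 and 3 and 9 there with the block, and 0 to 2 with 1 array left out. The median difference ranged from -0.18 to 0.14 with 1 array left out. The block changed no call between genotypes among the 61 genes, while Nrarp passed with it and not without it. For the replicate term, centring on the 75th percentile gave 12 higher and 26 lower genes, quantile normalization 11 lower, and no intensity trend 2 in all, 2 higher and 0 lower. With 1 array left out, an alternative added after seeing the data, the counts were 17 to 32 in all, 13 to 24 higher and 4 to 8 lower. Among 27 named genes some small genotype differences changed sign, none of them called, and the cause was not tested. They became 0.012 (Dnaja2) and 0.034 (Hspa5) with centring, -0.0099 (Cct8) with quantile normalization, and -0.038 (Cct7), 0.0105 (Dnaja2), -0.26 (Dnajc11), -0.046 (Dnajc14) and -0.11 (Hspb8) with array weights. They were 0.49 (Dnajc5) with the mean of its probes, and -0.032 (Cct8), -0.22 (Dnajc11) and -0.041 (Dnajc14) on replicates 2 and 3, with or without the block. With 1 array left out the ranges were -0.045 to 0.18 (Cct2), -0.42 to 0.68 (Cct6b), -0.57 to 0.73 (Cct7), -0.20 to 0.24 (Cct8), -0.30 to 0.22 (Dnaja2), -0.024 to 0.43 (Dnajb1), -0.42 to 0.21 (Dnajb6), -1.62 to 0.19 (Dnajb8), -0.063 to 0.91 (Dnajc11) and -1.05 to 1.06 (Dnajc14). They were -0.54 to 0.33 (Dnajc5), -1.07 to 0.26 (Hsp90b1), -1.86 to 0.48 (Hspa13), -0.67 to 0.45 (Hspa5), -1.51 to 0.64 (Hspa9), -0.44 to 0.49 (Hspb8), -0.57 to 0.14 (Hspd1), -0.13 to 0.33 (Hspe1), -0.79 to 0.38 (Hsph1) and -1.05 to 0.32 (Tcp1). Whether dim genes lie above background could not be measured, since no background or detection value was used here.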

Other observations

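The spread among the Hspd1 probes was compared with that of other genes read by several probes. On the array, 197 named genes had 2 or more probes above the median on all 6 arrays. The shifts of replicate 1 against replicates 2 and 3 differed by more than 1 on the log2 scale between probes of the same gene in 112 of them (56.9%), with a median range of 1.15, and had opposite signs in 82. The dimmest probe had the larger shift in 151. Hspd1, with 3 probes, had a range of 2.56. Of the 197 genes 188 had 2 probes and 9 had 3, over which a range is wider by construction; among those 9 the median range was 1.87 and Hspd1 ranked 4. Of the 61 chaperone genes, 2 were read by more than 1 probe.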
